A study of Mus musculus with 16 samples.

Results

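Alanine tRNAs in plasma small extracellular vesicles (pEVs) were examined as 39 annotated genes, namely every entry of the ncRNA table whose name begins with tRNA-Ala. They were taken from 433 tRNA entries and 15159 ncRNAs in all, and were grouped by the anticodon in their names and by sets of entries with identical values. By anticodon there were 17 AGC genes, 10 CGC genes, 11 TGC genes and 1 GGC gene. The pEVs came from 8 PS19 mice and 8 wild-type (WT) mice. The PS19 mice were heterozygous (PS19+/-) for a transgene that expresses human MAPT with the P301S mutation from the mouse prion protein (Prnp) promoter, on a mixed C57BL/6 and C3H background, and the WT mice were littermates without it. Each group held equal numbers of males and females of about 9.6 months, and the sex of each library was not used here. One small RNA library was made per mouse from pEVs that were precipitated from 200 µL of plasma, so the replicates are different mice. Precipitation also brings down other plasma particles, and the counts do not separate RNA inside vesicles from RNA bound to such particles.

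Alanine tRNAs read the GCN codons. The adenosine at the start of an AGC anticodon is edited to inosine, which widens the codons it can read, whereas CGC and TGC genes serve codons ending in G and in A. Alanyl-tRNA synthetase, encoded by Aars1, recognises its tRNAs mainly by a G:U pair in the acceptor stem, and an editing defect in this enzyme causes Purkinje cell loss in mice. Cells also cleave tRNAs into fragments, for example by the ribonuclease angiogenin under stress, and such fragments are common in plasma. The counts here do not tell whole tRNAs from fragments.

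RefSeq lists 33 alanine tRNA genes on GRCm38 (13 AGC, 9 CGC and 11 TGC), with 12 of them on chromosome 13 between positions 21222586 and 23438768 and 12 on chromosome X between 136357602 and 136590436. Those genes are 72 to 73 bases long. Lengths of the entries in the ncRNA table were not used here, and levels of different members are compared as normalized counts, not per base. RefSeq and the ncRNA table name these genes differently and 0 of the 39 names could be matched, so no position was given to a single member. RefSeq lists no alanine tRNA with a GGC anticodon there.

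The libraries held 36220722 to 117583663 reads assigned to ncRNAs, and tRNAs took 90.8% to 99.9% of them. The values are normalized counts, that is reads divided by the size factor of each library, and 1 read was worth 0.389 to 3.83 normalized counts. The smallest of those factors was 0.261, in PS19 replicate 4, so 1 read weighs most there. The smallest library was WT replicate 2, which also had the highest miRNA share of all 16 (7.51%). A total of 3 reads, the upper limit that a count of 0 allows, came to 1.17 to 11.5 normalized counts depending on the library, and this covers counting error only. The names of all PS19 libraries begin with the same letter, which only WT replicates 2 and 4 share, and what the letter stands for is not given in the sources used here. Outside these, letter and genotype cannot be told apart.

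Alanine tRNAs were a minor part of the pEV tRNAs, and a CGC gene, tRNA-Ala-CGC-5-1, supplied nearly all of their reads. With identical entries counted once, alanine tRNAs held 0.0716% to 0.267% of tRNA reads in PS19 (median 0.109%) and 0.0255% to 0.175% in WT (median 0.114%). The groups overlapped, with PS19 replicate 7 the highest and WT replicate 2 the lowest of all libraries. tRNA-Glu and tRNA-Gly, by comparison, held 49.8% and 49.9% of all tRNA reads, and tRNA-Ala ranked 4 among 22 isotypes, after tRNA-His at 0.153%. The total for tRNA-Ala was 0.125%.

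tRNA-Ala-CGC-5-1 gathered 1338603 reads over the 16 libraries, between 5780 reads in WT replicate 2 and 145531 reads in PS19 replicate 7. It made up 89.5% to 97.4% of the alanine tRNA reads in PS19 and 81.4% to 98.5% in WT. By mean normalized count it ranked 19 among 292 distinct tRNA profiles, while the next alanine tRNA, tRNA-Ala-AGC-2-1, ranked 47. The ratio of tRNA-Ala-CGC-5-1 to tRNA-Ala-AGC-2-1 ran from 68.4 to 194.8 in PS19 and from 37.1 to 361.6 in WT, so it was far the more abundant in every library although the ratio itself was not constant. Its level stood at 0.443% to 2.51% of that of tRNA-Glu-CTC-1-6, a glutamate tRNA, and that percentage was lowest in WT replicate 2.

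The anticodon named for tRNA-Ala-CGC-5-1 is alanine's, but the entry outside tRNA-Ala whose level most resembled it was a glutamate tRNA. Across the 16 libraries its log2(normalized count + 1) correlated with that of tRNA-Glu-CTC-5-1 with a Pearson r of 0.962, with mmu_circ_0007180 at 0.960 and with mmu_circ_0005433 at 0.955. These are the 3 entries most like it among 2599 ncRNAs with a mean of at least 10, and all entries share library depth and size factor. The mean of tRNA-Glu-CTC-5-1 was 8763 normalized counts, that of mmu_circ_0007180 was 57.6, and that of tRNA-Ala-CGC-5-1 was 95753. Its correlation with tRNA-Ala-AGC-2-1 was 0.816 and with tRNA-Ala-TGC-6-1 it was -0.02.

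Among the 17 AGC genes the reads ran from 3 to 12412 per gene, and 5 of the 17 had reads in every library. The highest was tRNA-Ala-AGC-2-1, with 213.9 to 3168 normalized counts in PS19 (median 723) and 62.1 to 2587 in WT (median 517). PS19 replicate 4 was the highest and WT replicates 2 and 5 the lowest, and the groups overlapped. The top rank depended on the scaling: with library totals WT replicate 3 was the highest at 1356, and PS19 replicate 4 was at 815. The lowest AGC gene, tRNA-Ala-AGC-14-1, had 3 reads in all, with 1 each in PS19 replicates 1 and 6 and in WT replicate 4.

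The TGC genes were the most evenly detected: all 11 had a mean of at least 10 and 8 had reads in every library, against 4 of the 10 CGC genes. tRNA-Ala-TGC-1-1 was the highest, at 153.8 to 2718.95 normalized counts in PS19 (median 554) and 26.4 to 1882 in WT (median 419), with overlapping groups. tRNA-Ala-TGC-5-1 was the lowest TGC gene, with 198 reads in all. The lowest CGC gene, tRNA-Ala-CGC-6-1, had 20 reads, of which 17 were in PS19 replicate 7, 2 in PS19 replicate 1 and 1 in WT replicate 5. The GGC gene, tRNA-Ala-GGC-4-1, had 1 read, in PS19 replicate 3, and its values were identical to those of 105 other ncRNAs that had just that read.

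**Figure D1:**
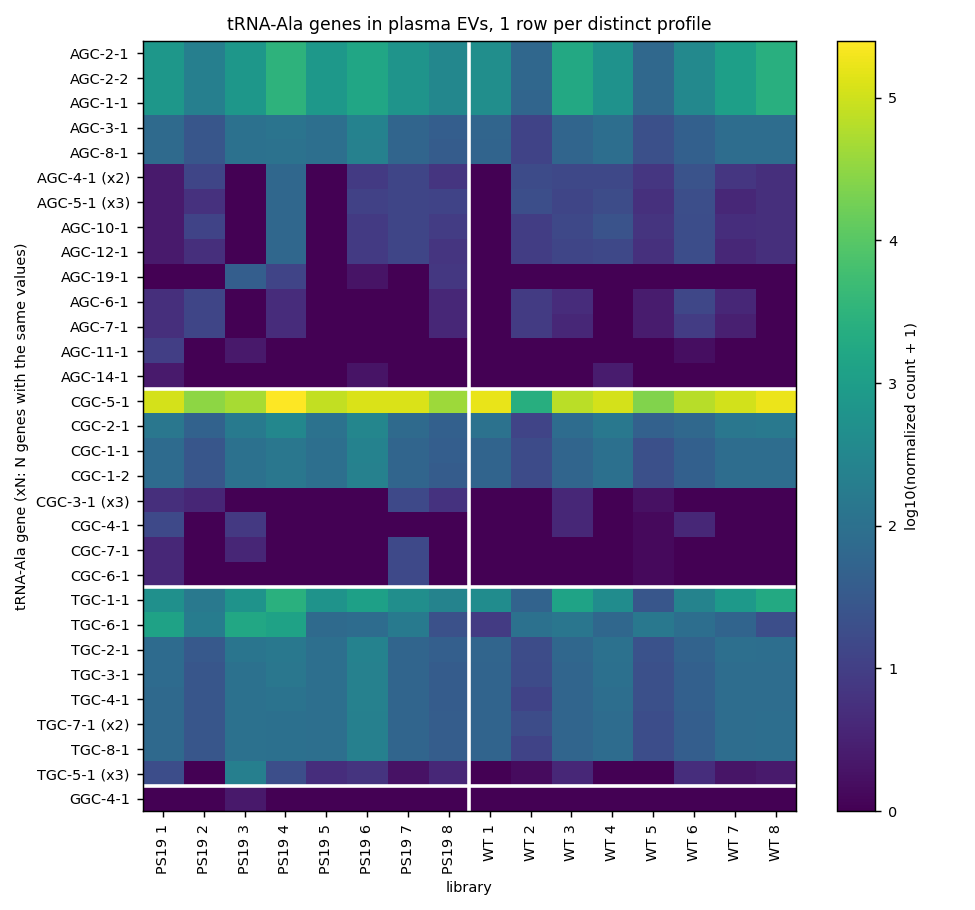
Levels of the alanine tRNA genes in the 16 pEV libraries, as log10(normalized count + 1) by colour, with libraries across (8 PS19, then 8 WT) and 1 row for each of the 31 distinct profiles, grouped by anticodon. tRNA-Ala-CGC-5-1 is the brightest row in every library, and the rows of the 10 genes near 71.3 to 81.6 normalized counts look alike although they belong to 3 anticodons.

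The 39 genes gave 31 distinct profiles. In 5 of the 7 numbered families with several loci (AGC-4, AGC-5, CGC-3, TGC-5 and TGC-7) the loci had identical values in all 16 libraries, which involved 13 genes. In the other two families the loci were nearly alike: those of AGC-2 differed by 4 reads in all, over 2 libraries, and those of CGC-1 by 26 reads over 7 libraries. Loci of a family are thus not independent measurements, and each identical set is described below by its first gene.

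Genes with different anticodons also shared profiles. Joined at a Pearson r above 0.99, the 39 genes fell into 19 groups, of which 7 had several members and 2 spanned several anticodons. The largest held 10 genes, namely AGC-3-1, AGC-8-1, CGC-1-1, CGC-1-2, TGC-2-1, TGC-3-1, TGC-4-1, TGC-7-1, TGC-7-2 and TGC-8-1, with means of 71.3 to 81.6 normalized counts. Within it the lowest r was 0.983, and the largest ratio between its highest and lowest gene in a library was 1.56. The second held AGC-1-1, AGC-2-1, AGC-2-2 and TGC-1-1, with means of 733 to 947. There the TGC gene went with the AGC genes at r = 0.992 for tRNA-Ala-AGC-2-1, and its level was 0.719 to 0.858 of tRNA-Ala-AGC-2-1 in PS19 and 0.405 to 0.885 in WT, lowest in WT replicate 5.

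The larger of these groups also matched circRNA entries. tRNA-Ala-TGC-8-1, taken as its example after its values were seen, had 1103 reads against 1121 for mmu_circ_0003415. The 2 entries had equal reads in 12 of the 16 libraries, differed by at most 6 reads in any library, and correlated at r = 0.999. For the group of AGC-2-1 the most alike entry was mmu_circ_0001448, with r = 0.976 for tRNA-Ala-AGC-2-1 and 0.992 for tRNA-Ala-TGC-1-1, followed by tRNA-His-GTG-1-1 (0.913 and 0.894) and tRNA-Glu-CTC-2-1 (0.910 and 0.885). tRNA-Ala-AGC-2-1 exceeded mmu_circ_0001448 in all 16 libraries, with 12412 reads against 5770. Of the 23 alanine tRNA profiles with a mean of at least 3, 22 had a circRNA as their most alike entry and 15 of the 23 had an r above 0.95 with it. Whether the same reads were counted in both annotations was not tested.

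Outside these groups some members followed them and others did not. tRNA-Ala-CGC-2-1 correlated with tRNA-Ala-TGC-8-1 at r = 0.929, with tRNA-Ala-CGC-5-1 at 0.874 and with tRNA-Ala-AGC-2-1 at 0.840. AGC-4, AGC-5, AGC-10 and AGC-12, 7 genes that join at r above 0.95, had means of 9.87 to 11.5 normalized counts. Their normalized counts were highest in PS19 replicate 4, where each had 16 reads and 1 read was worth 3.83 normalized counts. Each of the 7 had more reads than that in WT replicates 2 and 6. tRNA-Ala-AGC-4-1 had 40 reads in both of these, and 65 in PS19 against 128 in WT in all. Its r with tRNA-Ala-AGC-2-1 was 0.0096. tRNA-Ala-CGC-3-1, tRNA-Ala-CGC-6-1 and tRNA-Ala-CGC-7-1 each had 17 reads in PS19 replicate 7 and at most 7 in any other library. In 9 of the 39 genes over 50% of the normalized counts came from a single library.

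Leaving tRNA-Ala-CGC-5-1 aside, AGC genes made up 41.4% to 65.6% of the remaining alanine tRNA reads in PS19 and 42.3% to 75.0% in WT. TGC genes made up 28.6% to 52.3% and 21.98% to 43.3%, and the other CGC genes 3.83% to 9.22% and 2.56% to 14.4%. The largest variable within this make-up was tRNA-Ala-TGC-6-1. It took 27.1%, 29.5% and 13.5% of these reads in PS19 replicates 1, 3 and 2, and 23.2% and 19.02% in WT replicates 5 and 2, but at most 8.65% in each of the other 11 libraries. High shares thus occurred in both genotypes. In WT replicates 5 and 2 tRNA-Ala-TGC-6-1 itself had 368 and 252 reads, the highest of the WT libraries. tRNA-Ala-AGC-2-1 had 168 and 151 reads there, the fewest of the 16 libraries. What set these shares was not tested.

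**Figure D2:**
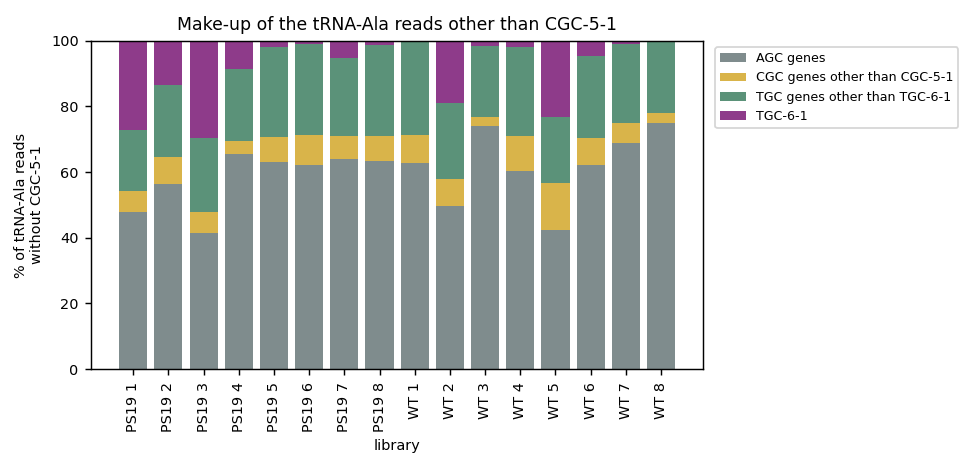
Make-up of the alanine tRNA reads other than tRNA-Ala-CGC-5-1 in each library, as a percentage of those reads (bars sum to 100%) with identical entries counted once. tRNA-Ala-TGC-6-1 reaches 29.5% in PS19 replicate 3 and 23.2% in WT replicate 5, so its largest shares are not confined to a genotype.

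PS19 and WT were then compared for each member, to ask which alanine tRNAs differ in pEVs between tau transgenic mice and their littermates. Of the 39 genes 5 were higher in PS19 at a raw p under 0.05, where 2.72% of all ncRNAs were, and 0 were lower, where 2.13% of all were (limma on log2(normalized count + 1)). The 5 genes are 3 of the 31 distinct profiles: the TGC-5 set of 3 genes, tRNA-Ala-TGC-6-1 and tRNA-Ala-AGC-19-1. After adjustment over all 15159 ncRNAs 0 of the 39 passed with limma, with an adjusted p of 0.829 for each of the 5. Testing the recovered reads with DESeq2 also gave 5 of the 39 a raw p under 0.05 (3.83% of all ncRNAs were higher at that p), and 1 of them, tRNA-Ala-TGC-6-1, an adjusted p under 0.05 (0.745% of all ncRNAs). With edgeR 11 of the 39 were higher at a raw p under 0.05, where 7.88% of all ncRNAs were, and 5 had an adjusted p under 0.05, as had 2.1% of all ncRNAs. The exact permutation test gave 4 of the 39 genes a p under 0.05, all higher, against 2.04% of all ncRNAs. For 0 of the 39 did the groups fail to overlap, where this held for 0% of all ncRNAs.

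By anticodon, 4 of the 11 TGC genes, 1 of the 17 AGC genes, 0 of the 10 CGC genes and not the GGC gene were called. Of the 4 TGC genes 3 are the TGC-5 set with identical values. The limma difference was above 0 in all 11 TGC and all 10 CGC genes, with medians of 0.72 and 0.68, and in 8 of the 17 AGC genes, with a median of -0.11. These counts are of genes, not of independent measurements. Among the 9 AGC genes below 0, 7 join at r above 0.95, and AGC-6-1 and AGC-7-1 join at r above 0.99. Above 0, AGC-1-1, AGC-2-1, AGC-2-2, AGC-3-1 and AGC-8-1 shared profiles with TGC genes. The contrast between anticodons also depended on the method: with DESeq2 15 of the 17 AGC genes were above 0 beside all TGC and CGC genes, and with edgeR 5 AGC, 10 TGC and 9 CGC genes were. The median over the 39 was 0.67, over the other 394 tRNAs 0.46 and over all ncRNAs -0.01. Without WT replicate 2 the medians of the 39 and of the other tRNAs fell to 0.44 and 0.28, with library totals they were 0.40 and 0.23, and with the miRNA covariate 0.22 and -0.21. They rose to 1.23 and 0.96 with miRNA size factors and to 0.98 and 0.63 among the libraries that share a letter. Without PS19 replicate 4 the other tRNAs fell to 0.15. Calls in PS19 were also found in other isotypes: 12 of 17 tRNA-Ile and 8 of 9 tRNA-iMet entries, 2 of 59 tRNA-Cys, 2 of 19 tRNA-Gln, 1 of 25 tRNA-Arg and 1 of 31 tRNA-Lys were higher, and none of the 22 isotypes had an entry that was lower. As distinct profiles these were 6 of 11 tRNA-Ile and 2 of 3 tRNA-iMet, and 14 of 262 over all other isotypes. Against these 26 entries, the other tRNAs that were higher numbered 2 without PS19 replicates 1 or 4 or WT replicates 5 or 7, 3 without PS19 replicate 3, 7 without WT replicate 6, and 12, 15 and 17 without WT replicates 8, 4 and 3. Those that were lower then numbered up to 9, as without WT replicates 5 or 6. With library totals 1 other tRNA was higher and 0 were lower, and with the covariate 1 was higher and 3 were lower. In the exact permutation test 3 were higher and 9 were lower. Other settings raised the number that were higher: 38 without PS19 replicate 2, 41 with a replicate block and 42 with DESeq2. It was 62 with miRNA size factors and 71 with edgeR.

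**Figure D3:**
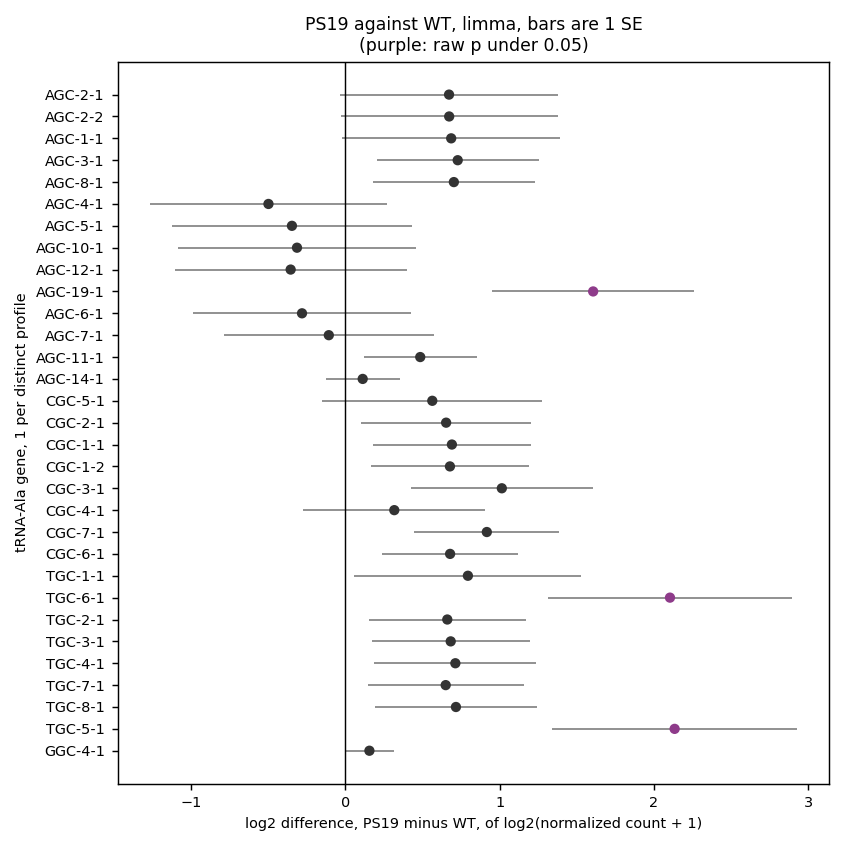
Difference between PS19 and WT (PS19 minus WT) in log2(normalized count + 1) for the 31 distinct alanine tRNA profiles, with bars of 1 standard error from limma; a purple point has a raw p under 0.05. The 3 called profiles, tRNA-Ala-TGC-5-1, tRNA-Ala-TGC-6-1 and tRNA-Ala-AGC-19-1, lie at 2.13, 2.10 and 1.61, and 6 AGC profiles lie below 0.

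tRNA-Ala-TGC-6-1 had the most reads of the called genes, 4179 in all. Its normalized counts in PS19 replicates 1 to 8 were 1318, 179.6, 1739, 1315, 71.0, 79.0, 168 and 21.1, and those in WT replicates 1 to 8 were 7.61, 103.6, 128.9, 61.8, 143, 89.8, 52.7 and 18.5. PS19 replicates 1, 3 and 4 stood far above every other library, 5 of the 8 PS19 libraries exceeded the highest WT library, and PS19 replicate 8 lay among the lowest WT libraries. As a mean it stood at 611 ± 715 normalized counts (SD, n = 8) in PS19 against 75.7 ± 49.2 (SD, n = 8) in WT. On the log2(normalized count + 1) scale the difference was 2.10 ± 0.79 (SE, raw p = 0.0134 with limma, and p = 0.0491 in a two-sided exact permutation test). The difference fell short of the raw threshold when PS19 replicates 1, 3 or 4 or WT replicates 1 or 8 were left out, at 1.75, 1.70, 1.76, 1.72 and 1.89, and with array weights, at 1.498. DESeq2 gave a log2 fold change of 3.01 with an adjusted p of 0.0101, and edgeR one of 2.42 with an adjusted p of 0.0244.

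The 3 highest libraries of tRNA-Ala-TGC-6-1 were also those with the least miRNA. miRNAs made up 0.0869%, 0.246% and 0.0645% of the reads of PS19 replicates 1, 3 and 4, while the other 13 libraries had 0.289% to 7.51%. With the log2 miRNA share as a covariate, a fit added after seeing the data, the difference was 1.54, with a raw limma p of 0.0579. Raw reads of tRNA-Ala-TGC-6-1 in those 3 libraries were 897, 1268 and 343, whereas WT replicates 5 and 2 had 368 and 252, so PS19 replicate 4 had fewer reads than WT replicate 5, with 1 read worth 3.83 normalized counts in it. Among the 8 PS19 libraries and WT replicates 2 and 4, which share a letter, the difference was 1.58 (exact permutation p = 0.422 over 45 splits).

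Of the miRNAs known from particular blood or tissue sources, those of red blood cells were low in these libraries. The summed normalized counts of 6 red blood cell miRNAs, all of them detected, were 3532 to 88346 in PS19 and 34078 to 186707 in WT, and the 3 lowest of the PS19 libraries, at 9934, 9676 and 3532, were replicates 1, 3 and 4. As a share of miRNA reads this held for replicates 3 and 4 (4.25% and 1.75%), but replicate 1 (9.48%) lay above replicate 2 (8.84%). In each of the other sets 2 of the 3 libraries had the lowest sums of all 16: replicates 1 and 4 for endothelium and for platelets and white blood cells, and replicates 3 and 1 for liver. The remaining one was not low, with replicate 3 at 1542 for endothelium and, at 397.7, the highest PS19 library for platelets and white blood cells, and with replicate 4 at 48412 for liver. As shares of miRNA reads the order differed: replicates 3 and 1 had the highest endothelial shares of all 16 (0.677% and 0.492%) and the highest platelet and white blood cell shares (0.175% and 0.0926%), and replicate 4 had the highest liver share of the PS19 libraries (24.0%). The sum of 2 endothelial miRNAs was 516 to 2262 in PS19 and 1444 to 3373 in WT, that of 4 platelet and white blood cell miRNAs 97.0 to 397.7 and 143.6 to 399.3, and that of 2 liver miRNAs 8373 to 211497 and 26450 to 385899. All of these markers were detected. Their part in the alanine tRNA differences was not tested.

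The scaling moved the comparison of tRNA-Ala-TGC-6-1. Scaled by library totals it ran from 28.8 to 1511 in PS19 and from 5.28 to 560 in WT, and only 2 PS19 libraries exceeded the highest WT library. The difference was then 1.81 (exact permutation p = 0.110, and a raw limma p of 0.0534), where the median over all ncRNAs was -0.11. With size factors computed from miRNAs alone it was 2.68 (exact permutation p = 0.0454), where the median over all ncRNAs was 0.18. Set against tRNA-Ala-AGC-2-1 of the same library, a comparison added after seeing the data that needs no size factor other than for the pseudocount, the log2 ratio was -1.60 ± 2.13 (SD, n = 8) in PS19 against -3.03 ± 2.90 (SD, n = 8) in WT, a difference of 1.43 (exact permutation p = 0.273).

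**Figure D4:**
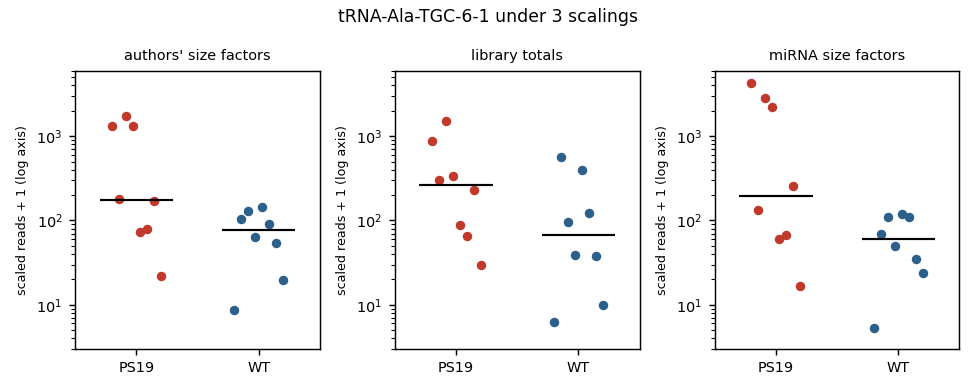
tRNA-Ala-TGC-6-1 in each library (points, in replicate order from left to right, with the median as a line) as scaled reads + 1 on a log axis, under the authors' size factors, library totals and miRNA size factors. Under the authors' size factors 5 PS19 libraries lie above the highest WT library, and under library totals 2 do.

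tRNA-Ala-TGC-6-1 did not follow the examples of the 2 groups that span anticodons. Its r was 0.109 with tRNA-Ala-AGC-2-1 and 0.115 with tRNA-Ala-TGC-8-1, against 0.707 with tRNA-Ala-TGC-5-1 and 0.487 with tRNA-Ala-AGC-19-1. The entries most like it were mmu_circ_0014158 (r = 0.972), mmu_circ_0015689 (0.929) and mmu_circ_0002145 (0.917). The mean of mmu_circ_0014158 was 309 normalized counts in PS19 and 57.0 in WT, and tRNA-Ala-TGC-6-1 had more reads than it in 15 of the 16 libraries.

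The TGC-5 set, shown by tRNA-Ala-TGC-5-1, rested on 198 reads. PS19 replicates 1 to 8 had 12, 0, 152, 5, 5, 6, 1 and 4 reads, and WT replicates 1 to 8 had 0, 1, 3, 0, 0, 7, 1 and 1. PS19 replicate 3 alone held most of them, 1 PS19 and 3 WT libraries had none, and the groups overlapped. In normalized counts the medians were 4.82 in PS19 and 0.712 in WT, with a highest value of 208 in PS19 and 4.06 in WT. The difference in log2(normalized count + 1) was 2.13 ± 0.79 (SE, raw p = 0.0122 with limma, and p = 0.0261 in the exact permutation test). Without PS19 replicate 3 it was 1.46, and it kept a raw p under 0.05 in all 16 fits that left out 1 library. DESeq2 gave a log2 fold change of 2.25 with an adjusted p of 0.256, and edgeR one of 3.98 with an adjusted p of 0.000302. With the miRNA covariate the difference was 1.40, with a raw limma p of 0.0729, and among the libraries that share a letter it was 2.77 (exact permutation p = 0.178). Set against tRNA-Ala-AGC-2-1 of the same library, also added after seeing the data, the difference was 1.46 (exact permutation p = 0.160). Its most alike entries were mmu_circ_0000481 (r = 0.878), mmu_circ_0004294 (0.854) and mmu_circ_0004295 (0.854).

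Reads of tRNA-Ala-AGC-19-1 were found in 4 PS19 libraries and no WT library, with 29, 3, 1 and 9 reads in replicates 3, 4, 6 and 8 and 0 in the other 12 libraries. As a mean this was 7.34 ± 13.8 normalized counts in PS19 (SD, n = 8). For WT, 3 reads in each library, the upper limit that a count of 0 allows, came to a mean of 2.85 normalized counts. The PS19 mean was 2.58 times that limit, a ratio that takes no account of the spread among PS19 libraries. Replicate 3 alone held 39.8 normalized counts, and without it the PS19 mean was 2.71, under that limit, so the ratio rests on this library. The limma difference of 1.61 ± 0.66 (SE, raw p = 0.0213) depends on the pseudocount, and the exact permutation test gave p = 0.0769. With the miRNA covariate it was 1.32, with a raw limma p of 0.0701, and among the libraries that share a letter it was 1.61 (exact permutation p = 0.556). The raw limma p rose to 0.0553, 0.0603, 0.0626 and 0.0529 when PS19 replicates 3, 4 and 8 and WT replicate 5 were left out in turn. DESeq2 gave it no adjusted p, and edgeR an adjusted p of 0.00149. Its most alike entries were mmu_circ_0004857 (r = 0.858), mmu_circ_0004858 (0.849) and mmu_circ_0004388 (0.847).

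**Figure D5:**
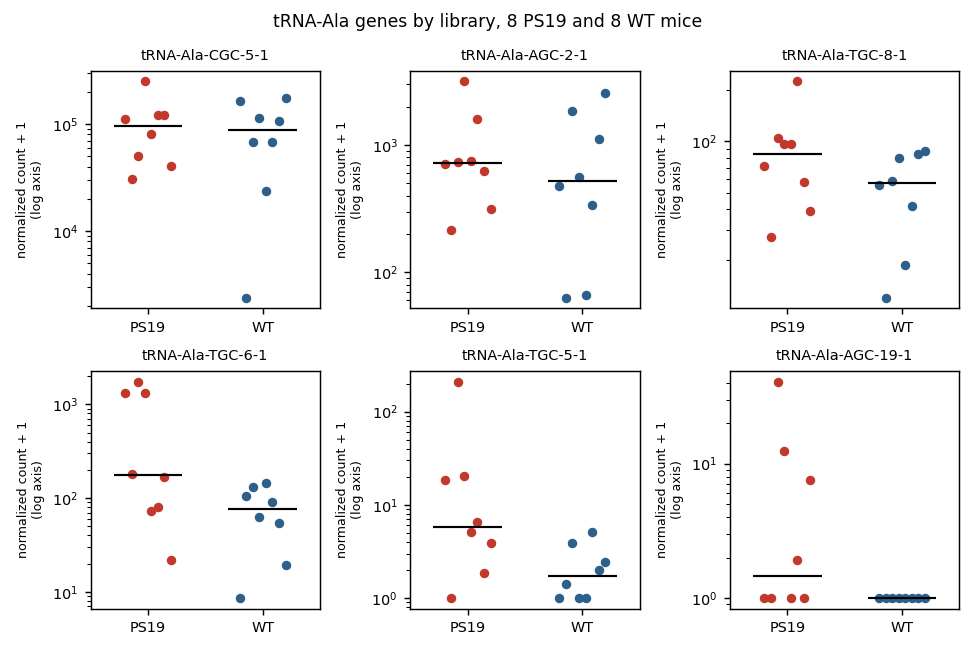
Normalized count + 1 on a log axis for 6 alanine tRNA genes in the 8 PS19 and 8 WT libraries (points, in replicate order from left to right, with the group median as a line). tRNA-Ala-CGC-5-1 spans 30778 to 250631 in PS19 and 2377 to 176893 in WT, whereas tRNA-Ala-AGC-19-1 is at 0 in all WT libraries and in 4 PS19 libraries.

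The abundant members did not pass the test. tRNA-Ala-CGC-5-1 ran from 30778 to 250631 normalized counts in PS19 (median 96372) and from 2377 to 176893 in WT (median 87531). The difference was 0.56 ± 0.71 (SE, limma, exact permutation p = 0.567), and without WT replicate 2, its lowest library, it turned to -0.086, with a raw limma p of 0.869. It was 1.15 with miRNA size factors and 2.31 among the libraries that share a letter, with raw limma p-values of 0.171 and 0.105. The interval of 2 SE around 0.56 runs from -0.86 to 1.99. For tRNA-Ala-AGC-2-1 the difference was 0.67 ± 0.70 (SE, exact permutation p = 0.428) and for tRNA-Ala-TGC-1-1 it was 0.79 ± 0.74 (SE, p = 0.385), both below 0 with edgeR and with the miRNA covariate. Among the libraries that share a letter these were 1.96 and 1.94, and with miRNA size factors 1.26 and 1.38, none with a raw limma p under 0.05. tRNA-Ala-CGC-6-1 and tRNA-Ala-AGC-14-1, the lowest of their anticodons, gave differences of 0.68 ± 0.44 and 0.11 ± 0.24 (SE), with exact permutation p-values of 0.467 and 1.0. edgeR called tRNA-Ala-CGC-6-1 at the raw threshold, with a log2 fold change of 3.49 and an adjusted p of 0.116.

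The 10 genes that shared a profile across 3 anticodons had differences of 0.65 to 0.73, and the smallest raw p among them was 0.178 (limma). tRNA-Ala-TGC-8-1 had 26.5 to 223 normalized counts in PS19 (median 82.7) and 11.1 to 86.7 in WT (median 56.1). PS19 replicate 6 was its highest library and the groups overlapped. With size factors from miRNAs these 10 genes passed the raw threshold, as did 77 of the 433 tRNAs, and with library totals none of the 10 did. Among the AGC genes below 0, tRNA-Ala-AGC-4-1 was at -0.50 ± 0.77 (SE, exact permutation p = 0.581) and turned to 0.15 with DESeq2. tRNA-Ala-AGC-6-1 was at -0.28 ± 0.70 (SE, exact permutation p = 0.714) and turned to 0.025 with miRNA size factors.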

How the data were processed

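Per the labels and the study's methods, the authors aligned the small RNA reads with STAR 2.5.3a, assigned them to ncRNAs with COMPSRA and compared genotypes with DESeq2 1.42.1. The deposited signal values are counts divided by DESeq2 size factors. The authors also deposited log2 fold changes, a Wald score and p-values of their own comparison, which were not used. How reads that match several tRNAs were assigned is not given in the sources used here. Whole reads were recovered for 100% of values within 1e-06 of a read.

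Values were tested as log2(value + 1) with limma 3.58.1 in R 4.3.3 over all 15159 ncRNAs, with raw p under 0.05 as the study's threshold and Benjamini-Hochberg adjustment. Alternatives were DESeq2 1.42.0, edgeR 4.0.16, an exact permutation test over 12870 splits, other scalings, filters of a mean of 1 or 10, a pseudocount of 0.1, 1 entry per identical set, array weights, a replicate block, the libraries of 1 name letter and each library left out. The tests were checked on simulated data. Named members are the highest and lowest of each anticodon, those with a raw limma p under 0.05 and the 3 largest differences, with their 3 most alike entries. tRNA-Ala-TGC-8-1, CGC-2-1, AGC-4-1, AGC-6-1, CGC-3-1, CGC-7-1 and GGC-4-1 were chosen after their values were seen. The members and lists were chosen with earlier results of these data known.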

Additional observations from a re-analysis of the deposited data

Results flagged for a closer look

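In groups of 8 libraries the gap of the highest or lowest library to its neighbour was compared with the range of the group (Dixon's ratio), which flags about 1 in 20 groups by chance. In WT, tRNA-Ala-CGC-5-1 gave a ratio of 0.533 on the log2(normalized count + 1) scale, with WT replicate 2 at 2377 normalized counts as the low library. The share of alanine tRNAs among tRNA reads gave 0.531 in PS19, with replicate 7 at 0.267% as the high library. The ratio was 1.0 for tRNA-Ala-CGC-6-1 and 1.0 for tRNA-Ala-AGC-14-1 in WT, where each had a single read in a single library, replicate 5 for the former and replicate 4 for the latter.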

How the results depend on the processing

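At a raw p under 0.05, 735 ncRNAs and 5 alanine tRNA genes were called. edgeR called 2295 and 11, library totals 437 ncRNAs, and a mean of at least 10 called 230 ncRNAs. The alanine tRNA genes numbered 15 with miRNA size factors, 0 within the letter of the PS19 names and 0 with the miRNA covariate, which was added after seeing the data. Of the 735 calls 412 were higher and 323 lower in PS19, against 144 and 293 with library totals, 766 and 128 with miRNA size factors, 100 and 758 within the letter and 340 and 416 with the covariate. With DESeq2 581 were higher and 241 lower, and with edgeR 1195 and 1100. The miRNA size factors raised the median of all ncRNAs to 0.18 and library totals lowered it to -0.11. With 1 library left out at a time the alanine tRNA calls numbered 3 (without PS19 replicate 3 or 4) to 8 (without WT replicate 3), and all ncRNA calls 590 to 853.

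The sign turned for tRNA-Ala-CGC-5-1 with edgeR (-0.18), the covariate (-0.30) and without WT replicate 2, the only library under 50% of the median total (-0.086), for tRNA-Ala-AGC-2-1 with edgeR (-0.23) and the covariate (-0.25), and for tRNA-Ala-TGC-1-1 with edgeR (-0.15) and the covariate (-0.15). It also turned for tRNA-Ala-AGC-4-1 with DESeq2 (0.15), tRNA-Ala-AGC-6-1 with miRNA size factors (0.025) and tRNA-Ala-AGC-14-1 within the letter (-0.39). With 1 library left out, tRNA-Ala-CGC-5-1 ran from -0.086 to 0.80, tRNA-Ala-AGC-6-1 from -0.63 to 0.042 and tRNA-Ala-AGC-14-1 from -0.034 to 0.28. None of these 6 was called under any of these settings, and the cause was not tested.

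A replicate block left 5 alanine tRNA genes and 685 ncRNAs called. Equal replicate numbers belong to different mice: their correlations ran from -0.18 to 0.47 and exceeded 0.1 for 2 of the 8, so the numbers do not pair the libraries. The 19 profile groups became 16 at r above 0.95. Depth limits the genes with few reads, 3 of which had under 10 in all.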
